A study of Mus musculus with 6 samples.

Results

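The genes described are 8 members of the redox proteome that handle selenium or oxidised methionine: the selenoproteins Selenow, Selenoh, Selenov, Selenoo and Msrb1, and the methionine sulfoxide reductases Msra, Msrb2 and Msrb3, which together with Msrb1 make up the mouse reductase set. They are a list of gene names, drawn up with earlier results of these data known, and each was measured by 1 probe, so that 8 of 39429 non-control probes and 8 of 22853 tested genes are concerned. RNA of the hypothalamus was measured on 6 one-colour arrays from male C57BL/6J mice aged 16 weeks, with 2 arrays per genotype. Trsp-RIPKO mice carried TrspFlox/Flox with RIP-Cre, Trsp-Ins1KO mice carried TrspFlox/Flox with Ins1-Cre, and the TrspFF controls carried TrspFlox/Flox alone, so that all 3 groups shared the floxed alleles. RIP-Cre is driven by a rat insulin promoter, which is active in pancreatic beta cells and also in part of the hypothalamus, whereas Ins1-Cre is known mainly for activity in beta cells. A hypothalamus sample therefore holds many cells in which neither Cre is expected to act, and in such bulk RNA fewer cells of a type and less RNA per cell cannot be told apart. No group with Cre and without the floxed alleles was analysed here.

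Trsp encodes the transfer RNA that inserts selenocysteine, the selenium-containing amino acid at the active site of most selenoproteins, during translation. The messages of selenoproteins carry an in-frame UGA codon, and some of them, Selenow and Selenoh among the known examples, are open to nonsense-mediated decay when that codon is not decoded. Methionine sulfoxide reductases reverse the oxidation of methionine: Msra acts on the S form of the sulfoxide and the Msrb enzymes on the R form, with electrons that come from thioredoxin and thioredoxin reductase. Msrb1 has selenocysteine at its active site, whereas Msrb2, Msrb3 and Msra use cysteine. The working name of the set speaks of cytosolic proteins, but Selenoo and Msrb2 are mitochondrial, Selenoh is nucleolar and Msrb3 is found in the endoplasmic reticulum or mitochondria, so the name does not describe every member.

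A level is the log2 processed signal of the probe minus the log2 75th percentile of that array, and a difference is a difference of such levels. Probes differ in their response, so levels are set against each other only within a gene. All 8 probes were well above background on all 6 arrays, and none was saturated. The 75th percentile itself was between 1736 and 2136 on the knockout arrays and 1391 and 1720 on the TrspFF arrays, and the share of probes well above background was 68.9% to 71.9%. Trsp has 0 entries among the 49997 genes of the name table used, so the deleted gene was not checked. Both TrspFF arrays were on 1 slide and in 1 scan and all 4 knockout arrays on another, so that genotype and slide cannot be told apart in a comparison with TrspFF, while Trsp-RIPKO and Trsp-Ins1KO were compared within 1 slide. The deposited value table and the scanner files disagree on which knockout is which: each table column named for one knockout matched a scanner file of the other, with a correlation over probes of at least 0.9999975. The names of the scanner files are used here, and the comparison of both knockouts with TrspFF does not depend on them. Of 10 hypothalamic markers, 9 were well above background on every array, Otp being the exception, and the mean level of the neuronal markers was between 4.41 and 4.53 on the 6 arrays. The second Trsp-Ins1KO array stood apart: its choroid plexus markers had a mean level of -2.37, against 0.12 to 0.98 on the other 5 arrays, and its cortex and hippocampus markers had -4.20, against -2.33 to -1.07. For several members the values without that array are given below.

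None of the 8 genes passed an adjusted p of 0.05 in limma's moderated test in any of the 4 comparisons. Of all tested genes, 1.66% passed for Trsp-RIPKO against TrspFF, 1.82% for Trsp-Ins1KO against TrspFF, 3.78% for both knockouts against TrspFF and 0.0175% for Trsp-RIPKO against Trsp-Ins1KO. The first 3 comparisons share the same 2 TrspFF arrays, and their counts over all genes rest on single arrays: without the first TrspFF array 0, 511 and 0 genes passed, and without the second 495, 0 and 3, in place of 379, 416 and 863. Leaving out any 1 of the 6 arrays lowered the third count to between 0 and 146. At an unadjusted p of 0.05, 2, 2, 3 and 2 members passed in these comparisons, where 24.0%, 26.0%, 26.1% and 18.4% of all genes did, so those counts are near the background. They were Selenow and Selenov in the first, Selenow and Selenoh in the second, Selenow, Selenov and Msrb2 in the third, and Selenoh and Msrb3 in the last. The labels do not say that the 2 arrays of a group came from separate animals, so the p-values measure the spread between arrays, which may be technical. The members are described below by their values and intervals, all of which are unadjusted 95% intervals.

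Selenow, Selenoh and Selenov belong to a family of small proteins with a thioredoxin-like redox fold, which also holds the selenoprotein Selenot and Mien1, a relative without selenocysteine. Selenow is abundant in brain and muscle, Selenoh is a nucleolar protein linked to the response to oxidative stress, and Selenov is known mainly from testis. Their differences from TrspFF did not share 1 sign, so the 250 bases before the transcript start of each are shown for comparison. They are printed 5′ to 3′ from RefSeq on GRCm38.p6, with capitals where a searched motif matched.
Selenow, chr7:15922372-15922621, minus strand: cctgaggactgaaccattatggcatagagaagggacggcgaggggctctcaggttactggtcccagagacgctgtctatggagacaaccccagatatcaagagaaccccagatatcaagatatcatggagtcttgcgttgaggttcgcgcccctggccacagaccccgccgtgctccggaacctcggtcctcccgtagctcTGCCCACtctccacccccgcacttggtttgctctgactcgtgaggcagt
Selenoh, chr2:84670709-84670958, minus strand: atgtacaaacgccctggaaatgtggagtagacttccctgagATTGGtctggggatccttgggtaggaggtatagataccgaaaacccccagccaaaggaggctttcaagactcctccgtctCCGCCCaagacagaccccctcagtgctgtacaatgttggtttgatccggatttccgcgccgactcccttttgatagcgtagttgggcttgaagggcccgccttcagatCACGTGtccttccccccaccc
Selenov, chr7:28291187-28291436, minus strand: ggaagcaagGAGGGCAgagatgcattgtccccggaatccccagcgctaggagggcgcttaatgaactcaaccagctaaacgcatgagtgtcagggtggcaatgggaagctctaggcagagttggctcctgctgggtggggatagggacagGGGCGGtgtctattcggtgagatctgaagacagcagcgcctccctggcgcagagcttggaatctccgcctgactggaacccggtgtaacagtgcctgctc
The motifs were searched on both strands, and no matches overlapped in these windows. Selenow holds TGCNCNC at positions -49 to -43, counted back from the start. This pattern is looser than the metal response element core TGCRCNC, where R is A or G, and the letters TGCCCAC have C there. Selenoh holds CCAAT on the reverse strand at -209 to -205, the GC box GGGCGG on the reverse strand at -129 to -124 and the E-box CACGTG, a palindrome, at -21 to -16. Selenov holds the looser TGCNCNC on the reverse strand at -241 to -235, also with C in place of R, and the GC box at -100 to -95.

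Selenow had levels of 5.61 and 5.33 in Trsp-RIPKO and 5.42 and 5.65 in Trsp-Ins1KO, against 5.05 and 5.08 in TrspFF. All 4 knockout arrays were above both TrspFF arrays, and the 2 knockouts overlapped. The processed signal was 90506 and 85982 in Trsp-RIPKO and 74527 and 96904 in Trsp-Ins1KO, against 46220 and 58266 in TrspFF. In both knockouts against TrspFF the difference was 0.43 (SE 0.12), a 1.35-fold higher signal with an interval of 1.09 to 1.67 and a limma adjusted p of 0.11. Taken singly, Trsp-RIPKO differed from TrspFF by 0.40 (adjusted p = 0.179 by limma) and Trsp-Ins1KO by 0.47 (adjusted p = 0.129 by limma). Without the second Trsp-Ins1KO array the difference for Trsp-Ins1KO was 0.36 with an adjusted p of 0.372, again by limma, and with quantile normalization it was 0.25. With normexp background correction Selenow did pass for both knockouts against TrspFF, at 0.54 and a limma adjusted p of 0.0493. Between Trsp-RIPKO and Trsp-Ins1KO the difference was -0.07, with a fold interval of 0.745 to 1.22. Striatal markers also separated the slides, with a summed level of -12.71 and -12.45 in Trsp-RIPKO and -14.00 and -13.33 in Trsp-Ins1KO, against -7.80 and -4.75 in TrspFF, and their part in the Selenow difference was not tested.

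Selenov lay on the other side of its controls in Trsp-RIPKO. Its levels were -0.88 and -1.09 in Trsp-RIPKO and -0.44 and -0.67 in Trsp-Ins1KO, against -0.08 and -0.54 in TrspFF. Both Trsp-RIPKO arrays were below the other 4 arrays, whereas Trsp-Ins1KO and TrspFF overlapped. The 2 TrspFF arrays were 0.47 apart, the widest gap between replicates for any member. Trsp-RIPKO differed from TrspFF by -0.67 (SE 0.20), a fold of 0.627 with an interval of 0.441 to 0.891 and a limma adjusted p of 0.143. That value was -0.44 without the first TrspFF array and -0.91 without the second. Against Trsp-Ins1KO on the same slide, Trsp-RIPKO differed by -0.43, with a fold interval of 0.522 to 1.05 and a limma adjusted p of 0.297. Without the second Trsp-Ins1KO array this difference was -0.55. For Trsp-Ins1KO against TrspFF the difference was -0.24, with an interval of 0.595 to 1.20-fold; without the first TrspFF array it was -0.01, and without the second Trsp-Ins1KO array -0.12. The probe was well above background on every array, with a processed signal of 1007 and 1006 in Trsp-RIPKO and 1284 and 1210 in Trsp-Ins1KO, against 1318 and 1179 in TrspFF. The 75th percentile of the array was 1858 and 2136 in Trsp-RIPKO and 1736 and 1930 in Trsp-Ins1KO, against 1391 and 1720 in TrspFF. A difference in level holds both the signal and this percentile, and their shares in the Selenov difference were not tested.

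Selenoh was highest on the 2 Trsp-Ins1KO arrays. It had levels of 1.38 and 1.48 in Trsp-RIPKO and 1.71 and 1.73 in Trsp-Ins1KO, against 1.46 and 1.26 in TrspFF. Trsp-RIPKO and TrspFF overlapped, and Trsp-Ins1KO overlapped with neither. Trsp-Ins1KO differed from TrspFF by 0.36 (SE 0.10), 1.28-fold with an interval of 1.06 to 1.54 and a limma adjusted p of 0.127. Trsp-RIPKO differed from TrspFF by 0.07, with an interval of 0.874 to 1.27-fold, and from Trsp-Ins1KO by -0.29, a fold of 0.82 with a limma adjusted p of 0.265. The hypothalamic markers followed the same order, with a summed level of 6.51 and 4.22 in Trsp-RIPKO and 11.31 and 10.67 in Trsp-Ins1KO, against 5.47 and 3.30 in TrspFF. Their part in the Selenoh difference was not tested. By the names of the deposited value table the 2 knockouts change places, with 0.36 for Trsp-RIPKO and 0.07 for Trsp-Ins1KO against TrspFF.

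**Figure D1:**
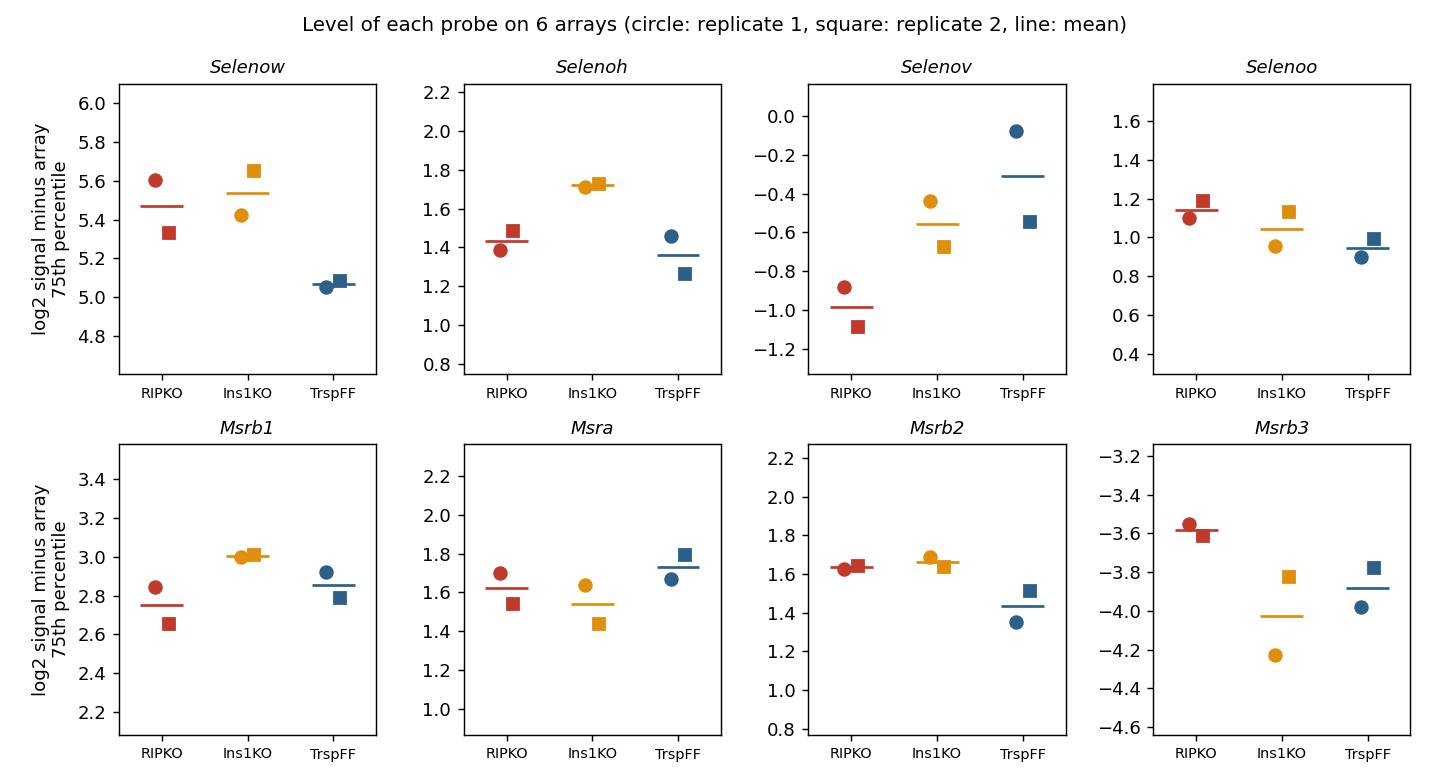
Level of each of the 8 genes on each of the 6 arrays, in log2 units relative to the 75th percentile of the array, with 1 point per array and a line at the mean of each group. Selenow lies at 5.33 to 5.65 on the 4 knockout arrays, above the 5.05 and 5.08 of TrspFF, while Selenov is lowest on the Trsp-RIPKO arrays.

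Selenot and Mien1 complete the redox-fold family. Mien1 had levels of 2.75 and 2.90 in Trsp-RIPKO and 3.02 and 2.96 in Trsp-Ins1KO, against 2.64 and 2.63 in TrspFF, a difference of 0.27 for both knockouts (adjusted p = 0.121 by limma). Selenot, which resides in the endoplasmic reticulum, differed from TrspFF by 0.09 in Trsp-RIPKO and 0.25 in Trsp-Ins1KO. None of the 5 family members passed the adjusted test in any comparison. In both knockouts against TrspFF 4 of 5 were above 0, with a median of 0.22 where 51.3% of all genes were above 0 and their median was 0.01. Selenov was the exception. Taken singly, Trsp-RIPKO had a median of 0.09 and Trsp-Ins1KO of 0.35 against TrspFF. In Trsp-RIPKO against Trsp-Ins1KO 0 of 5 were above 0, with a median of -0.16. Of all genes 42.1% were above 0 in that comparison, with a median of -0.05.

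Selenoo is a mitochondrial pseudokinase that transfers AMP to other proteins. Its levels were 1.10 and 1.19 in Trsp-RIPKO and 0.96 and 1.13 in Trsp-Ins1KO, against 0.90 and 0.99 in TrspFF. Trsp-RIPKO did not overlap with TrspFF, whereas Trsp-Ins1KO did. Trsp-RIPKO differed from TrspFF by 0.20 and Trsp-Ins1KO by 0.10, with fold intervals of 0.952 to 1.38 and 0.889 to 1.29. With normexp background correction both differences were below 0, at -0.01 and -0.09. Without the second Trsp-Ins1KO array the value for Trsp-Ins1KO was 0.01.

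Msrb1, the reductase with selenocysteine, had levels of 2.85 and 2.65 in Trsp-RIPKO and 2.998 and 3.008 in Trsp-Ins1KO, against 2.92 and 2.79 in TrspFF. The Trsp-Ins1KO arrays were above the other 4, and the Trsp-RIPKO and TrspFF arrays overlapped. For both knockouts against TrspFF the difference was 0.02 (SE 0.09), with an interval of 0.859 to 1.20-fold. The 2 knockouts lay on either side of the controls, at -0.11 for Trsp-RIPKO and 0.15 for Trsp-Ins1KO. Leaving out 1 array gave -0.20 to -0.01 for Trsp-RIPKO, the ends being without its first and its second array, and 0.08 to 0.21 for Trsp-Ins1KO, the ends being without the second and the first TrspFF array. Between them Trsp-RIPKO differed by -0.25, a fold of 0.839 with an interval of 0.693 to 1.02 and a limma adjusted p of 0.282, and leaving out the first or the second Trsp-RIPKO array gave -0.35 or -0.16. The hypothalamic markers, given above for Selenoh, divided the arrays in the same way, and their part in the Msrb1 difference was not tested.

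Msra had levels of 1.70 and 1.54 in Trsp-RIPKO and 1.64 and 1.44 in Trsp-Ins1KO, against 1.67 and 1.79 in TrspFF. Trsp-RIPKO overlapped with TrspFF, and Trsp-Ins1KO lay below it. The differences from TrspFF were -0.11 for Trsp-RIPKO and -0.19 for Trsp-Ins1KO, with fold intervals of 0.75 to 1.15 and 0.708 to 1.08. Without the second Trsp-Ins1KO array the value for Trsp-Ins1KO was -0.09. For Trsp-RIPKO it was -0.19 without the first Trsp-RIPKO array and -0.03 without the second.

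Msrb2, the mitochondrial enzyme, was above TrspFF on all 4 knockout arrays. It had levels of 1.63 and 1.64 in Trsp-RIPKO and 1.69 and 1.64 in Trsp-Ins1KO, against 1.35 and 1.51 in TrspFF. The 4 knockout arrays spanned a narrower range than the 2 control arrays. Both knockouts against TrspFF gave 0.22 (SE 0.08), 1.16-fold with an interval of 1.01 to 1.34 and a limma adjusted p of 0.182. Without the first TrspFF array that difference was 0.13 (adjusted p = 0.432 by limma). Trsp-RIPKO and Trsp-Ins1KO differed by -0.03, with a fold interval of 0.831 to 1.16. The striatal markers, given above for Selenow, also separated the knockout arrays from TrspFF, and their part in the Msrb2 difference was not tested.

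Msrb3, the cysteine enzyme of the endoplasmic reticulum, had a processed signal of 158 and 175 in Trsp-RIPKO and 92.6 and 136 in Trsp-Ins1KO, against 88.2 and 125 in TrspFF. Its levels were -3.55 and -3.61 in Trsp-RIPKO and -4.23 and -3.83 in Trsp-Ins1KO, against -3.98 and -3.78 in TrspFF. The Trsp-RIPKO arrays were above the other 4, and the Trsp-Ins1KO and TrspFF arrays overlapped. Trsp-RIPKO differed from Trsp-Ins1KO by 0.45 (SE 0.16), 1.36-fold with an interval of 1.01 to 1.83 and a limma adjusted p of 0.267. That difference was 0.24 without the first Trsp-Ins1KO array and 0.65 without the second. Trsp-RIPKO differed from TrspFF by 0.30 and Trsp-Ins1KO by -0.15, and the value for Trsp-Ins1KO was 0.05 without the first Trsp-Ins1KO array and -0.35 without the second. Cortex and hippocampus markers were also highest on the Trsp-RIPKO arrays. Their summed level was -7.90 and -7.48 in Trsp-RIPKO and -14.26 and -29.37 in Trsp-Ins1KO, against -16.29 and -10.09 in TrspFF. Within Trsp-Ins1KO the orders differed, since the second array had the lower markers and the higher Msrb3. Endothelial markers separated the 2 knockouts but not Trsp-RIPKO from TrspFF, with -3.31 and -3.22 in Trsp-RIPKO and -6.48 and -5.70 in Trsp-Ins1KO, against -4.28 and -3.16 in TrspFF. The part of either list in the Msrb3 difference was not tested.

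**Figure D2:**
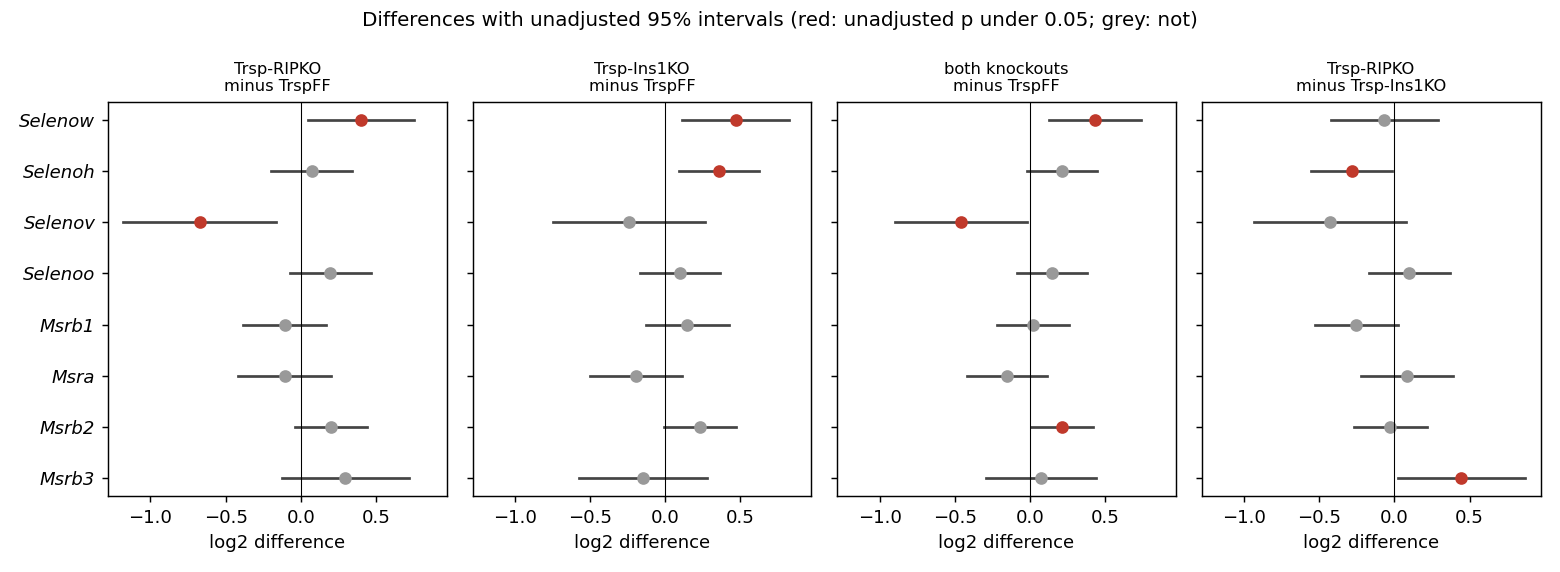
Difference in level for each of the 8 genes in the 4 comparisons, in log2 units, with points at the limma estimate and bars for the unadjusted 95% interval, in red where the unadjusted p was under 0.05. Selenow lies at 0.40, 0.47 and 0.43 in the 3 comparisons with TrspFF, and none of the points passed an adjusted p of 0.05.

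Counted over the 8 genes, the arrays of Trsp-RIPKO lay wholly above those of TrspFF for 4 genes (Selenow, Selenoo, Msrb2 and Msrb3) and wholly below for 1 (Selenov), where 28.1% and 30.2% of all genes did so. Trsp-Ins1KO lay wholly above TrspFF for 4 genes (Selenow, Selenoh, Msrb1 and Msrb2) and wholly below for 1 (Msra), where 31.7% and 26.4% of all genes did. All 4 knockout arrays lay above both TrspFF arrays for 2 genes, Selenow and Msrb2, and below for 0, against 16.9% and 17.5% of all genes. Trsp-RIPKO lay wholly above Trsp-Ins1KO for Msrb3 alone and wholly below for 3 genes, Selenoh, Selenov and Msrb1, against 22.9% and 35.7%. These counts over 8 genes are to be read against those background shares. The 5 selenoproteins among them had a median difference of 0.07 in Trsp-RIPKO and 0.15 in Trsp-Ins1KO against TrspFF, and the 3 cysteine enzymes had 0.20 and -0.15. The medians of all genes were -0.01 and 0.02. Each median of a class is the value of 1 gene, in that order Selenoh, Msrb1, Msrb2 and Msrb3, so the classes are not contrasted.

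The other selenoproteins were described in the same way, from a list of 19 of which 18 were tested, Dio3 being left out. None passed the adjusted test in any comparison. Of the 18, 13 were above 0 in Trsp-RIPKO against TrspFF and 15 in Trsp-Ins1KO against TrspFF, with medians of 0.08 and 0.20. In all genes 48.2% and 53.1% were above 0 and the medians were -0.01 and 0.02. In Trsp-RIPKO against Trsp-Ins1KO, 5 of 18 were above 0, with a median of -0.13, where 42.1% of all genes were above 0 and their median was -0.05. The 3 with the smallest p for both knockouts against TrspFF were Gpx2, a glutathione peroxidase known from gut epithelium, at 0.34 (adjusted p = 0.0747), Selenok, at 0.29 (adjusted p = 0.09), and Selenos, at 0.21 (adjusted p = 0.175), all by limma. Selenok and Selenos both act in the degradation of misfolded proteins at the endoplasmic reticulum. Selenok had levels of 3.90 and 3.98 in Trsp-RIPKO and 4.16 on each Trsp-Ins1KO array, against 3.74 and 3.77 in TrspFF.

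**Figure D3:**
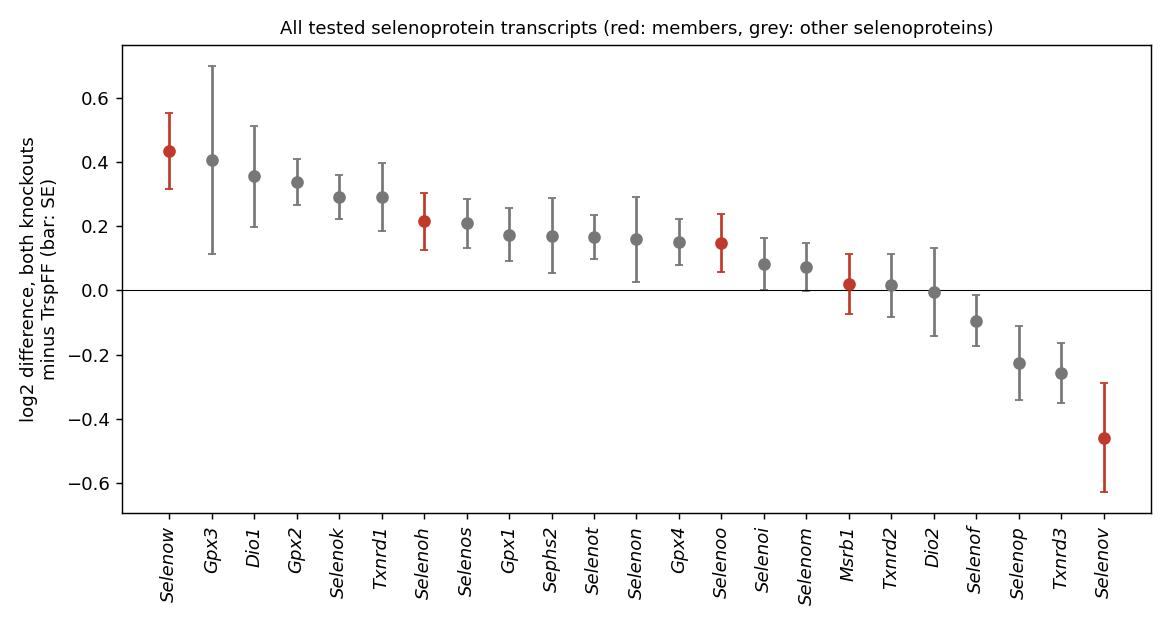
Difference in level of both knockouts from TrspFF, in log2 units, for the 23 tested selenoproteins, with the 5 described here in red, the other 18 in grey and bars for the standard error. Selenow lies at 0.43 and Selenov at -0.46, and none passed an adjusted p of 0.05.

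Thioredoxins, thioredoxin reductases and glutaredoxins, which can return electrons to methionine sulfoxide reductases, form a list of 10 genes together with Txnip, an inhibitor of thioredoxin. All were tested, and 0 passed in any comparison. In Trsp-RIPKO against TrspFF 5 of 10 were above 0, with a median of -0.02, where the median of all genes was -0.01. In Trsp-Ins1KO against TrspFF 7 of 10 were above 0, with a median of 0.20, where the median of all genes was 0.02. For both knockouts against TrspFF 7 of 10 were above 0, with a median of 0.08, where 51.3% of all genes were above 0. Txn2, the mitochondrial thioredoxin, had 0.26 (adjusted p = 0.101 by limma). Glrx5, a mitochondrial glutaredoxin used in iron-sulfur cluster assembly, had 0.32 (adjusted p = 0.103 by limma). Txnrd1, the cytosolic thioredoxin reductase and itself a selenoprotein, had 0.29 (adjusted p = 0.175 by limma). These 3 have the smallest p of the list, so they do not stand for it. The 3 genes below 0, named after their values were seen, were Txnrd3, Txn1 and Txnip. Txnrd3 had -0.26 (adjusted p = 0.176 by limma), Txn1 -0.11 and Txnip -0.04. Taken singly, Txn1 differed from TrspFF by -0.28 in Trsp-RIPKO and 0.05 in Trsp-Ins1KO. In Trsp-RIPKO against Trsp-Ins1KO 2 of 10 were above 0, with a median of -0.16, where 42.1% of all genes were above 0 with a median of -0.05.

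The methionine cycle and transsulfuration, which supply and consume the amino acid that these reductases repair, gave a list of 14 genes, all tested. None of the 14 passed the adjusted test. Cbs, which opens transsulfuration, had levels of 2.01 and 2.00 in Trsp-RIPKO and 2.12 and 1.96 in Trsp-Ins1KO, against 1.55 and 1.59 in TrspFF. Mat2b, the regulatory subunit of methionine adenosyltransferase, had 2.94 and 3.03 in Trsp-RIPKO and 2.88 and 2.86 in Trsp-Ins1KO, against 2.45 and 2.56 in TrspFF. Cth, which completes transsulfuration, had -1.90 and -1.85 in Trsp-RIPKO and -1.84 and -1.94 in Trsp-Ins1KO, against -2.56 and -2.23 in TrspFF. These 3 have the smallest p of the list, so they do not stand for it. The differences of both knockouts from TrspFF were 0.46, 0.42 and 0.51 in that order, with limma adjusted p of 0.056, 0.0595 and 0.0827. Over the list 10 of 14 were above 0, with a median of 0.17, where 51.3% of all genes were above 0 with a median of 0.01. On the other side of 0, and chosen after their values were seen, Ahcy, which hydrolyses S-adenosylhomocysteine, had -0.36 (adjusted p = 0.139 by limma) and Slc7a5, a transporter of large neutral amino acids, had -0.59 (adjusted p = 0.162 by limma).

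MICAL proteins oxidise methionines of actin, a modification that Msrb1 reverses, and a list of 7 genes with MICAL proteins, actins and the MICAL-like Micall1 and Micall2, which lack the oxidising domain, was tested with 0 passing. Their differences for both knockouts against TrspFF lay on both sides of 0, with 3 of 7 above it and a median of -0.03, where 51.3% of all genes were above 0. Mical3 had -0.38, Mical2 -0.72 and the MICAL-like Micall2 0.38, with limma adjusted p of 0.149, 0.219 and 0.0942. The levels of Mical2 were low, at -5.02 and -5.49 in Trsp-RIPKO and -5.77 and -6.66 in Trsp-Ins1KO, against -5.20 and -4.83 in TrspFF. Mical2 differed from TrspFF by -0.24 in Trsp-RIPKO and -1.20 in Trsp-Ins1KO. The lower Trsp-Ins1KO level, -6.66, was on the second array, which stood apart in its choroid plexus and cortex and hippocampus markers.

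The same promoter search covered 7 of the 8 members, all but Msra, among 32851 RefSeq windows. The antioxidant response element core TGACNNNGC, found in 10.2% of all windows, was in 0 of the 7. The pattern TGCNCNC, looser than the metal response element core and found in 44.4%, was in 3 (Selenow, Selenov and Msrb3). The GC box, found in 32.7%, was in 4 (Selenoh, Selenov, Msrb1 and Msrb3). CCAAT, found in 33.8%, was in 4 (Selenoh, Selenoo, Msrb1 and Msrb2), and the E-box, found in 6.02%, was in Selenoh alone. These matches describe letters and not bound sites, and the windows of Msrb2 and Msrb3 do not begin at the outer start of the gene.

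**Figure D4:**
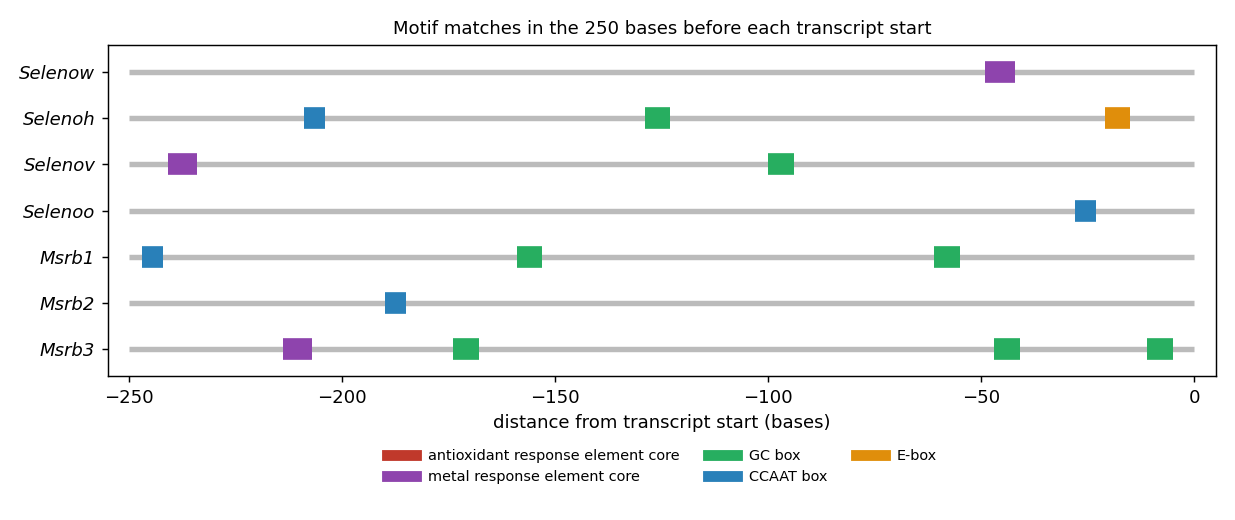
Position of each motif match in the 250 bases before the transcript start for the 7 members with a RefSeq window, in bases from the start. No member holds the antioxidant response element core, and the E-box lies only in Selenoh, at -21 to -16. Matches labelled metal response element core are to the looser pattern TGCNCNC.

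For each member the genes with the closest course over the 6 arrays were found, and up to 3 are named. Closeness was the root mean square difference after each gene was centred on its own mean. The search was limited to tested genes with a usual symbol, which leaves out clone and predicted-gene names and transcripts without a symbol. Trim8 and Daxx were closest to Selenow, at 0.05 and 0.06, where the median over the genes searched was 0.27. Closest to Selenov was Lepr, the leptin receptor, at 0.02, where the median was 0.37, followed by Ireb2 and Zfp457. Hsp90b1, Rfk and Hdac8 were closest to Selenoh, and Dusp22, Mta3 and Mfsd1 to Selenoo. For the reductases these were Cox6a1, Atp5l and Hpf1 for Msrb1, Acsl1, Mtmr1 and Arpc5 for Msra, Herc4, Mxd1 and Tmem14a for Msrb2, and Tiam1, Kdm2a and Adamtsl4 for Msrb3. Between members the closest pair was Selenoo and Msrb2, at 0.09, and the farthest was Selenov and Msrb3, at 0.51. The closest genes were picked from those of the 22853 tested genes with a usual symbol, over only 6 arrays, and these courses are given as a description.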

How the data were processed

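RNA of 6 hypothalamus samples was measured on one-colour Agilent arrays. Per the file headers, the deposited scanner files hold spot intensity from Agilent Feature Extraction 10.7.3.1, background-subtracted by that software, with flag columns for background, saturation and outliers. The deposited value table holds log2 values. It was set against the scanner files and used only as an alternative, since its knockout names are exchanged relative to those files; which names are right was not settled.

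Groups followed the sample labels. The processed intensity was taken to log2 and scaled to the 75th percentile of each array. Control spots and flagged outliers were left out, and spots of a probe were averaged. Probes had to be well above background on each array of at least 1 group (28055 of 39429 probes), and the brightest kept probe stood for a gene. Of the probes, 26055 had 1 symbol, updated through RefSeq names on GRCm38.p6, and 13374 had none. Transcripts without a symbol that passed the filter were kept under their own name and are counted among the tested genes. limma 3.58.1 in R 4.3.3 was fitted over all 6 arrays with 22853 genes, with Benjamini-Hochberg adjustment and a threshold of 0.05. The fit had 4.87 degrees of freedom and a median standard error of 0.13 (log2); the number of arrays limits the precision. The procedure was tested on simulated data.

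The 8 genes, the pathway lists and the markers were chosen with earlier results of these data known. All 8 were named, and from each list up to 3 genes by smallest p for both knockouts against TrspFF, since none passed the threshold. Selenot was added as the remaining relative of the redox-fold family, after its values were seen. The 3 genes with the closest course to each member were found, of which 1 is not reported here. Alternatives covered background correction, normalization, filters, probe choice, variance model, samples in the fit, the replicate block, the value table and leaving out each array. Slide and scan are aliased with TrspFF and could not enter the fit.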

Additional observations from a re-analysis of the deposited data

How the results depend on the processing

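In limma, 0 of the 8 genes passed in every comparison and alternative except for 1 gene, Selenow, with normexp background correction in both knockouts against TrspFF, and leaving out 1 array gave 0 to 0. By its own column names the deposited value table exchanged the 2 knockouts, which turned Trsp-RIPKO against Trsp-Ins1KO to 0.070 for Selenow, 0.29 for Selenoh, 0.43 for Selenov, -0.10 for Selenoo, 0.25 for Msrb1, -0.083 for Msra, 0.028 for Msrb2 and -0.44 for Msrb3. It also turned Msrb1 to 0.15 in Trsp-RIPKO and -0.11 in Trsp-Ins1KO against TrspFF, and Msrb3 to -0.15 and 0.30. Without a turn of sign it gave 0.36 and 0.07 for Selenoh and -0.24 and -0.68 for Selenov in these comparisons. Median scaling moved the median of all genes to 0.09 in Trsp-RIPKO and 0.11 in Trsp-Ins1KO against TrspFF and turned Trsp-RIPKO against TrspFF to 0.00045 for Msra and 0.0019 for Msrb1, values below that shift. Quantile normalization turned Msrb1 to -0.019 in both knockouts against TrspFF, and Trsp-RIPKO against Trsp-Ins1KO to 0.0027 for Msrb2 and 0.13 for Selenow. Normexp turned Selenoo to -0.0053 in Trsp-RIPKO, -0.088 in Trsp-Ins1KO and -0.047 in both knockouts against TrspFF. The cause of these turns was not tested. Leaving out each array gave -0.016 to 0.18 for Msra and -0.21 to 0.069 for Selenow in Trsp-RIPKO against Trsp-Ins1KO, -0.025 to 0.17 for Selenoh in Trsp-RIPKO against TrspFF, -0.35 to 0.054 for Msrb3 in Trsp-Ins1KO against TrspFF, and -0.047 to 0.087 for Msrb1 and -0.026 to 0.18 for Msrb3 in both knockouts against TrspFF. Selenow kept its direction against TrspFF in every alternative, at 0.25 to 0.60 in Trsp-Ins1KO and 0.26 to 0.54 in Trsp-RIPKO. The deviations between replicates had correlations between -0.02 and 0.09 from group to group, which cannot show whether the samples were paired. The replicate block left 0 members called in each comparison, with Selenow at 0.43 and a limma adjusted p of 0.162 in both knockouts against TrspFF. Over all genes that block called 0, 0, 119 and 0, against 379, 416, 863 and 4 without it. Without a filter the counts were 0, 25, 170 and 1, and with a trended, robust variance 785, 1241, 1732 and 1. A fit of only the 2 groups compared called 0 and 0 against TrspFF and 318 between the knockouts. Normexp called 432 genes higher and 761 lower in both knockouts against TrspFF, and median scaling 157 and 441, against 136 and 727. Leaving out 1 array called 0 to 495, 0 to 511, 0 to 146 and 0 to 318 genes.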
